A study of Mus musculus with 9 samples.

Results

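The genes described here are 38 transcripts made in quantity by hepatocytes, the parenchymal cells of the liver, read in RNA from sorted hepatic stellate cells, which are pericytes that store vitamin A. They were chosen by name, as a list of liver plasma proteins, metabolic enzymes and cytochromes, to describe hepatocyte RNA in the stellate fraction. All 38 names were found among the 35024 rows of the deposited table. The 9 libraries came from C57BL/6J background mice with floxed Yap1 alleles, all of which had received 6 intraperitoneal injections of carbon tetrachloride (CCl4, a hepatotoxin, 0.5 mg/kg in corn oil) at intervals of 3 days. The cells were taken 2 days past the final injection, enriched on a density gradient, sorted by the autofluorescence of their retinoids and lysed without culture. The control group had no Cre (LYT004, LYT005, LYT014, LYT015 and LYT017). The YAP-deleted group (LYT006, LYT008, LYT013 and LYT016) carried Cre under the promoter of Lrat, which is active in stellate cells, so the deletion was aimed at stellate cells and not at hepatocytes. No age or sex was given, there was no uninjured group, and no library of hepatocytes or whole liver was analysed here, so the levels below are not shares of cells.

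Hepatocytes secrete most plasma proteins, among them albumin, the apolipoproteins, fibrinogen and the serpins, and their messenger RNAs are among the most abundant in liver tissue. Along the liver lobule the enzymes of the urea cycle and of gluconeogenesis are known from the periportal end, and glutamine synthetase, Cyp2e1 and Cyp1a2 from the pericentral end, where CCl4 is activated by Cyp2e1. Several genes on the list are also known in other liver cells: Glul, Arg1, Ass1, Vtn, Trf, Apob and Hp. Transcription of many plasma protein genes in hepatocytes depends on liver-enriched factors, among them the C/EBP family.

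The library totals ran from 14052502 counts (LYT017) to 31816055 (LYT013). Yap1, the targeted gene, had 2902, 2915, 3653 and 3551 normalised counts (counts divided by the size factor of the library) in control LYT004, LYT005, LYT015 and LYT017, and 642, 648 and 645 in YAP-deleted LYT006, LYT008 and LYT016. The library labelled control LYT014 had 618, whereas LYT013, labelled YAP-deleted, had 2530, so these 2 went against their labels, and the fitted differences are given with and without them. A stellate identity of the sort was seen in every library: 12 stellate cell genes together held 41914 to 51748 CPM (counts scaled to a library total of 1000000), with Lrat at 35209 to 69555 normalised counts.

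The upstream sequences of 6 members are shown. Alb and Gc were taken because their deposited values followed each other across the libraries, and the fibrinogen genes Fgb and Fgg for the same reason. Alb was less close to the fibrinogen genes, with Pearson r over 9 libraries of 0.69 for Fgb and 0.67 for Fgg. Glul was taken for its far higher level, and F9 because it had no count in any control library. Each run is the 120 bases before the transcription start of RefSeq on GRCm38.p6, read 5′ to 3′ on the strand of the gene, and capitals mark TTGCNCAA, a form of the C/EBP motif, or its reverse complement TTGNGCAA.
Alb (chr5:90460750-90460869, plus strand): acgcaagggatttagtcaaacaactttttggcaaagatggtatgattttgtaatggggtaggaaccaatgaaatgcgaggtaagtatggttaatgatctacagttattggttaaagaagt
Gc (chr5:89457899-89458018, minus strand): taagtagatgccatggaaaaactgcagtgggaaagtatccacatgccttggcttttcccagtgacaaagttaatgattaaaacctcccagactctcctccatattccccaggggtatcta
Fgb (chr3:83049864-83049983, minus strand): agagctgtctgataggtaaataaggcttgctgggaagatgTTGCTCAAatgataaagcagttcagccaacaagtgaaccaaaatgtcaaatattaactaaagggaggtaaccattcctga
F9 (chrX:59999344-59999463, plus strand): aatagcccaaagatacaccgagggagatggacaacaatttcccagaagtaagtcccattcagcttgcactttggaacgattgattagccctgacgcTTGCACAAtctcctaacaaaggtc
Fgg (chr3:83007604-83007723, plus strand): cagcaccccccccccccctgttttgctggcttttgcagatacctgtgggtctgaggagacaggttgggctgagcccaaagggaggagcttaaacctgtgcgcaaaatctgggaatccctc
Glul (chr1:153899809-153899928, plus strand): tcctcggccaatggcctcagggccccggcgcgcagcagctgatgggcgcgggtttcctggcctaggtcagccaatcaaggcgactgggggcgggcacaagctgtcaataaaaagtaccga
Fgb had the motif 80 to 73 bases before the start and F9 24 to 17, and the windows printed for Alb, Gc, Fgg and Glul had none. Over the 250 bases before the start, on either strand, TTGCNCAA was found in 3 of 31 windows of members (9.68%), those of Fga, Fgb and F9, against 2.61% of 32851 RefSeq windows. The 31 windows belong to 30 members. TATAAA was present in 8 member windows (25.8%, against 12.4% of all windows), its longer form TATAAAA in 6 (19.4%, against 4.98%), TTGCNNAAT in 2 (6.45%, against 2.11%) and CAAAGTCCA in 1 (3.23%, against 0.384%). No member window held CAAAGTTCA or the form of TTGCNNAAT longer by 1 base, which were found in 0.335% and 0.539% of all windows. TATAAA lies within TATAAAA, TTGCNNAAT lies within its longer form, TTGCNNAAT can overlap TTGCNCAA, both strands were read for each motif, and the motifs and the 6 genes printed were chosen with their matches in view.

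Hepatocyte transcripts were a trace of these libraries. The 38 members together held 487.8 (LYT014) to 831 (LYT016) CPM, that is 0.0488% to 0.0831% of a library. Most of this came from the 5 members whose mean level lay above that of Alb, namely Glul, Trf, Itih3, Vtn and Ass1, which made up 81.7% (LYT005) to 92.6% (LYT014) of the member counts. The remaining 33 members, Alb included, summed to 36.1 (LYT014) to 116 (LYT013) CPM. In RNA from a sorted population, fewer cells of a type and less RNA per cell cannot be told apart, and neither can RNA carried over from hepatocytes and RNA made by the sorted cells. This split at the level of Alb was made after the values were seen.

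**Figure D1:**
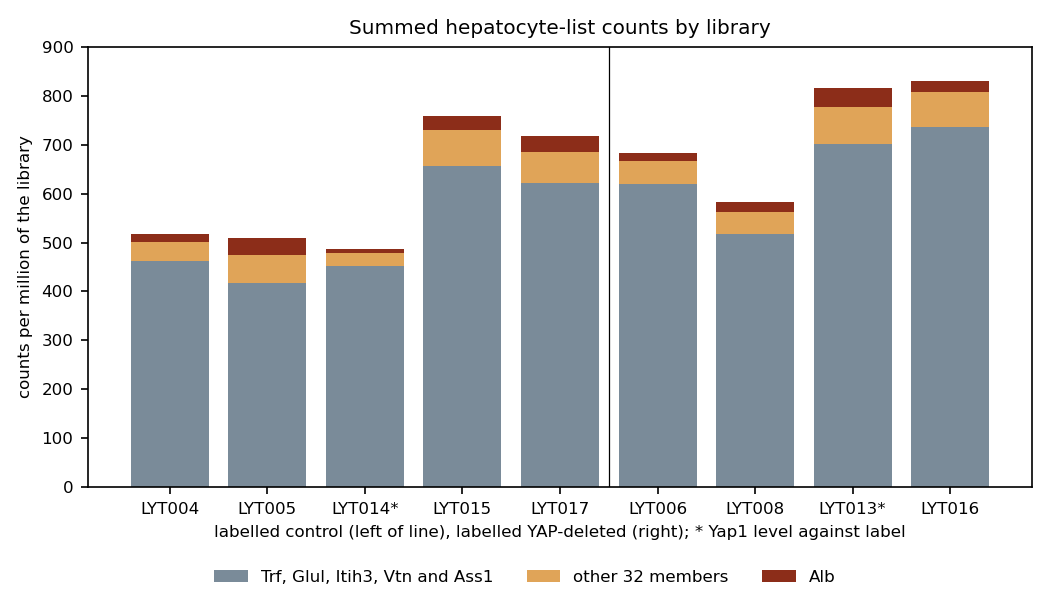
Summed CPM of the members in each library, stacked as the 5 genes above Alb on average (grey), Alb (dark red) and the other 32 members (yellow). The grey part makes up 81.7% to 92.6% of every bar, and the dark red part is thinnest in LYT014 and thickest in LYT013, the 2 libraries whose Yap1 level went against their labels.

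Alb (chromosome 5, 90460897 to 90476602, plus strand), the carrier protein of plasma and the most abundant of the 33, had 283.4, 650.0, 179.8, 529.6 and 620.5 normalised counts in control LYT004, LYT005, LYT014, LYT015 and LYT017. In YAP-deleted LYT006, LYT008, LYT013 and LYT016 it had 313.7, 352.1, 763.5 and 435.5. The groups overlapped over most of their range, and the lowest and the highest value, 4.25-fold apart, were those of LYT014 and LYT013. As a share of all counts, Alb was 9.79 CPM in LYT014 (exact 95% binomial interval 8.55 to 11.2) and 40.1 in LYT013 (37.9 to 42.4). These intervals cover counting error only, and they left the libraries apart.

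The labelled groups were compared with limma over all genes, with Benjamini-Hochberg adjustment at 0.05. Separate mice are not stated in the labels, and the p-values therefore reflect variation among libraries that may be partly technical. With all 9 libraries, limma called none of the 38 members and none of the 17203 genes tested (0%). An unadjusted p under 0.05 was found for 1242 genes (7.22%) and for 3 members, Trf, G6pc and F9. Of these, F9 passed the filter for testing only through the YAP-deleted group, so it had to differ. By limma voom, run on the whole counts, 0 genes passed too. Without LYT013 and LYT014, 11 of 16372 genes (0.0672%) passed by limma, of which 3 were higher and 8 lower with the deletion, and 8 passed by voom, and no member was among them. In these 7 libraries 37 members were tested, of which 4 had an unadjusted p under 0.05, against 6.41% of all genes.

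The signs of the members depended on the 2 doubted libraries. With 9 libraries, 29 of 38 differences (YAP-deleted minus control, in log2-like units) were positive and 9 negative, with a median of 0.12, against a median of -0.00 over all genes tested. The 29 include F9, whose sign was fixed by the filter. Without LYT013 and LYT014, 15 of 37 were positive and 22 negative, with a median of -0.06. Alb itself differed by 0.09 ± 0.34 (SE, limma adjusted p = 0.945, 4 against 5 libraries) and by -0.40 ± 0.25 (adjusted p = 0.832, 3 against 4) without the doubted pair. The sum of all members averaged 598 ± 129 CPM for the control label (SD, n = 5) and 728 ± 118 for the YAP-deleted label (SD, n = 4), a log2 ratio of 0.28, and 0.16 without LYT013 and LYT014. For the 33 members not above Alb the sums were 76.3 ± 29.1 and 84.7 ± 24.9, a log2 ratio of 0.15, which was -0.22 without LYT013 and LYT014. That ratio was -0.20 among codes 4 to 8, none of them doubted, and 0.43 among codes 13 to 17, which include LYT013 and LYT014. On this scale a given fold change gives a smaller difference for a gene with few counts.

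**Figure D2:**
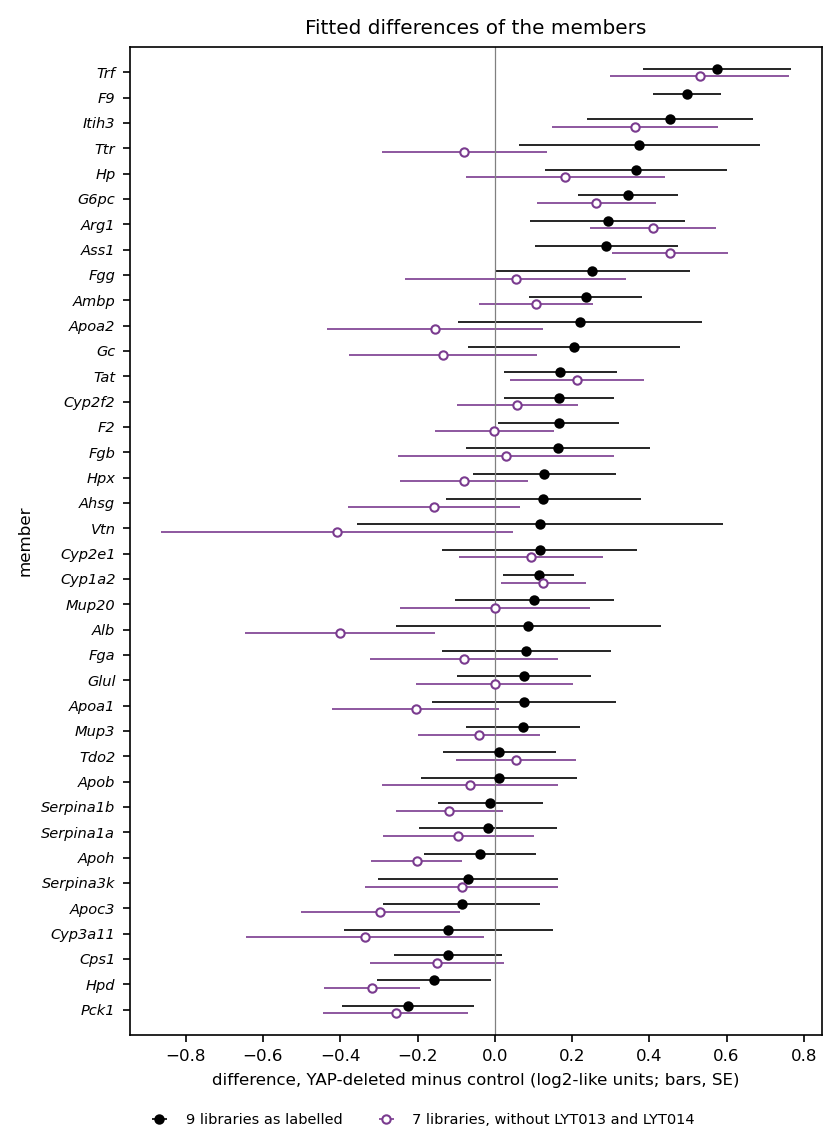
Fitted difference of each member (YAP-deleted minus control, log2-like units, bars are SE) with all 9 libraries as labelled (black) and without LYT013 and LYT014 (open purple). Alb moves from 0.09 to -0.40 and Ttr from 0.37 to -0.08 when the 2 libraries are left out, whereas Trf (0.57 and 0.53) and Itih3 (0.45 and 0.36) stay close, and F9 has no value in the smaller set.

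Among the secreted plasma proteins, Trf (chromosome 9, 103204001 to 103230444, minus strand), the iron carrier transferrin, was the most abundant per kilobase of transcript, with a mean of 1449 normalised counts per kilobase against 226 for Alb. Its normalised counts were 2865, 2074, 2596, 3541 and 3468 in control LYT004, LYT005, LYT014, LYT015 and LYT017. In YAP-deleted LYT006, LYT008, LYT013 and LYT016 they were 5299, 3060, 4379 and 4726. All YAP-deleted libraries except LYT008 lay above every control library. The difference was 0.57 ± 0.19 with 9 libraries (limma adjusted p = 0.649) and 0.53 ± 0.23 without LYT013 and LYT014 (adjusted p = 0.776), so it did not pass in either.

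Itih3, a heavy chain of the inter-alpha-trypsin inhibitor that binds hyaluronan, had 1420, 1445, 1098, 2569 and 1872 normalised counts in the control libraries, in the order LYT004, LYT005, LYT014, LYT015 and LYT017. The YAP-deleted libraries LYT006, LYT008, LYT013 and LYT016 had 2243, 1912, 2037 and 2830. The groups overlapped only through control LYT015, which exceeded 3 of the YAP-deleted libraries. The difference was 0.45 ± 0.22 (limma adjusted p = 0.649) and 0.36 ± 0.21 without LYT013 and LYT014 (adjusted p = 0.825). Vtn, the adhesive glycoprotein vitronectin, had 576.3, 388.8, 582.6, 1100 and 1813 normalised counts in the control libraries and 539.7, 460.5, 2152 and 899.4 in the YAP-deleted libraries, in the same orders. Its range was 5.53-fold, with the top values in LYT013 and LYT017, 1 of each label. The difference of Vtn was 0.12 ± 0.47 with 9 libraries and -0.41 ± 0.46 without LYT013 and LYT014.

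The other 13 secreted plasma proteins had means of 11.1 (Apoh) to 108 (Ahsg) normalised counts. Ahsg, the fetuin that binds mineral in plasma, ranged from 42.5 (LYT014) to 164 (LYT016). Apoa1, the main protein of high-density lipoprotein, ranged from 34.5 (LYT014) to 119.7 (LYT013), and Gc, the vitamin D binding protein, from 15.2 (LYT014) to 105 (LYT013). For these 3 the lowest library was that of Alb. Apoa2 and Apoc3, which have transcripts of 481 and 526 bases, and Ttr, the thyroxine carrier, varied more, by 10.2-fold, 11.6-fold and 13.5-fold. Mup20, a major urinary protein, varied by 11.3-fold. Apoc3 and Mup20 were highest in LYT017, and Apoa2 and Ttr in LYT013. Ttr had 12.8, 27.0, 10.4, 42.4 and 51.0 normalised counts in control LYT004, LYT005, LYT014, LYT015 and LYT017, against 25.4, 19.1, 141 and 40.0 in YAP-deleted LYT006, LYT008, LYT013 and LYT016. LYT013 alone lay above 51.0. That library also had 11.3% of its counts in genes with transcripts under 1000 bases, against 6.06% to 6.67% in the other 8. Apoa2, Apoc3, Mup3 and Mup20 are among those genes, and Ttr, with a transcript of 1186 bases, is not. The part of this share, or of transcript length, in the levels of any of them was not tested. Ttr differed by 0.37 ± 0.31 with 9 libraries (limma adjusted p = 0.699) and by -0.08 ± 0.21 without LYT013 and LYT014 (adjusted p = 0.970).

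**Figure D3:**
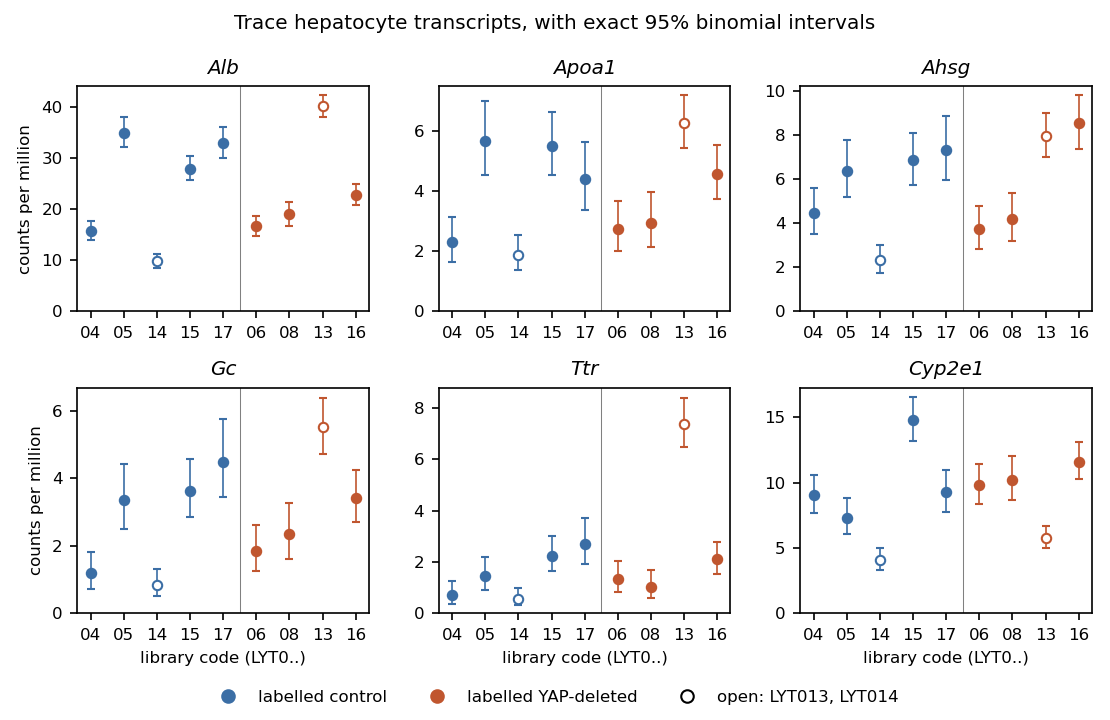
CPM of 6 members in each library, with exact 95% binomial intervals that cover counting error only. Filled points are libraries whose Yap1 level followed the label, open points are LYT013 and LYT014, and the vertical line parts control (left) from YAP-deleted (right). Alb runs from 9.79 in LYT014 to 40.1 in LYT013, and Apoa1, Gc and Ttr have their lowest and highest values in the same 2 libraries, whereas Cyp2e1 is highest in LYT015.

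The acute phase proteins haptoglobin (Hp) and hemopexin (Hpx), which bind free haemoglobin and haem, had means of 46.8 and 49.8 normalised counts. Hp was highest in LYT016 at 105 and Hpx in LYT013 at 92.7. Of the 7 members on the acute phase list, 6 had a positive difference with 9 libraries and 4 without LYT013 and LYT014, and none passed the adjusted threshold. Apob, the protein of very low-density lipoprotein, had a mean of only 1.68 normalised counts per kilobase of its 13934-base transcript. Mup3 and Mup20, major urinary proteins, had means of 19.2 and 21.3 normalised counts. Their transcripts were 87.6% identical over 940 aligned positions, so the split of reads between them is uncertain.

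The serpins Serpina1a and Serpina1b, the mouse alpha-1-antitrypsins, had means of 29.3 and 37.7 normalised counts, and Serpina3k had 30.6. Serpina1a was 96.8% identical to Serpina1b over 1344 aligned positions and 96.1% to 98.2% identical to Serpina1c, Serpina1d and Serpina1e, so the levels of the single copies are uncertain. All 3 serpin differences were negative in both sets of libraries, and none had an unadjusted p under 0.05.

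The fibrinogen genes Fga, Fgb and Fgg, whose products form the 3 chains of the clotting protein, lie side by side on chromosome 3, with gaps of 11.03 kb between Fgg and Fga and 6.51 kb between Fga and Fgb. Fgb had 10.7, 47.8, 14.4, 53.7 and 28.2 normalised counts in control LYT004, LYT005, LYT014, LYT015 and LYT017, against 28.8, 16.6, 43.7 and 65.1 in YAP-deleted LYT006, LYT008, LYT013 and LYT016. Their deposited values went together over the 9 libraries, with Pearson r of 0.94 for Fga and Fgb, 0.89 for Fgb and Fgg and 0.83 for Fga and Fgg, and 0.92, 0.87 and 0.78 without LYT013 and LYT014. F2, prothrombin, ranged from 4.81 (LYT014) to 26.9 (LYT013). Apart from F9, described next, all coagulation members had a positive difference with 9 libraries, and 2 of these 4 had one without LYT013 and LYT014.

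F9 (chromosome X, 59999464 to 60030759, plus strand), coagulation factor IX, was the member with the smallest p. It had 0 counts in each of the 5 control libraries, which allows up to 2.41 (LYT014) to 4.03 (LYT017) normalised counts at the limit of 3 counts that a count of 0 allows. The YAP-deleted libraries LYT006, LYT008, LYT013 and LYT016 had 2, 2, 13 and 4 counts, that is 2.31, 2.55, 7.78 and 3.34 normalised counts. The groups did not overlap, which was so for 1.69% of all genes tested in that direction, and 3 of the 4 YAP-deleted values lay under the highest of these limits, that of LYT006 under all of them. F9 passed the filter, which asked for a value above the lowest in at least 4 libraries, only through the YAP-deleted group, so it had to differ. The difference was 0.50 ± 0.09 (limma adjusted p = 0.649), and without LYT013 and LYT014 it was not tested, as only 3 libraries had a count.

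Ass1 (chromosome 2, 31470207 to 31520672, plus strand), the argininosuccinate synthase of the urea cycle, was the highest of the periportal enzymes. It had 345.1, 461.2, 655.6, 431.6 and 288.8 normalised counts in control LYT004, LYT005, LYT014, LYT015 and LYT017, against 600.8, 503.9, 503.2 and 508.9 in YAP-deleted LYT006, LYT008, LYT013 and LYT016. LYT014, the lowest library in Alb, was the highest in Ass1. The difference was 0.29 ± 0.18 with 9 libraries (limma adjusted p = 0.652). Without LYT013 and LYT014 it was 0.45 ± 0.15 (adjusted p = 0.670), and the groups then did not overlap, which 3.93% of all genes showed in that direction. Arg1, arginase 1, which closes the urea cycle and is also known in macrophages, had 68.2, 49.1, 33.7, 54.7 and 44.3 normalised counts in the control libraries and 116, 88.0, 34.1 and 60.9 in the YAP-deleted libraries, in the same orders. LYT006 and LYT008 were highest and the 2 doubted libraries lowest. Arg1 differed by 0.29 ± 0.20 (limma adjusted p = 0.659) and by 0.41 ± 0.16 without LYT013 and LYT014 (adjusted p = 0.740).

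Cps1, Cyp2f2 and G6pc were near the limit of detection. Cps1, carbamoyl phosphate synthetase of the urea cycle, had 3, 7, 7, 5 and 3 counts in control LYT004, LYT005, LYT014, LYT015 and LYT017 against 0, 5, 8 and 7 in YAP-deleted LYT006, LYT008, LYT013 and LYT016. Per kilobase of transcript the mean normalised count was 0.863 for Cps1 and 282 for Ass1, although both enzymes act in the same cycle. Cyp2f2, a periportal cytochrome, had 0, 3, 0, 2 and 4 counts in the control libraries and 2, 1, 8 and 6 in the YAP-deleted libraries. G6pc, the phosphatase that releases glucose, had 2, 2, 0, 0 and 0 counts and 6, 1, 10 and 3, in the same orders. Its difference was 0.34 ± 0.13 with 9 libraries (limma adjusted p = 0.649) and 0.26 ± 0.15 without LYT013 and LYT014 (adjusted p = 0.822). Pck1, the other gluconeogenic enzyme, had 36.2, 11.04, 6.42, 20.7 and 8.06 normalised counts in the control libraries and 6.92, 12.8, 5.39 and 10.01 in the YAP-deleted libraries, so LYT004 was highest and the groups overlapped.

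Of the amino acid catabolism enzymes, Hpd, which breaks down tyrosine, had 4.26, 6.13, 6.42, 14.1 and 6.72 normalised counts in control LYT004, LYT005, LYT014, LYT015 and LYT017. In YAP-deleted LYT006, LYT008, LYT013 and LYT016 it had 2.31, 2.55, 14.96 and 1.67. LYT013 was the highest of all 9 libraries, and the other 3 YAP-deleted libraries were the lowest. The difference was -0.16 ± 0.15 with 9 libraries (limma adjusted p = 0.728) and -0.32 ± 0.12 without LYT013 and LYT014 (adjusted p = 0.740), where the groups did not overlap, as for 3.66% of all genes in that direction. Tdo2, the tryptophan dioxygenase, ranged from 14.4 to 39.0 normalised counts, and Tat, tyrosine aminotransferase, from 0 to 8.48.

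At the pericentral end, Glul (chromosome 1, 153899944 to 153909723, plus strand), glutamine synthetase, had the highest mean normalised count of all members and the narrowest range, 1.69-fold. It had 3156, 3375, 3364, 4831 and 4291 normalised counts in control LYT004, LYT005, LYT014, LYT015 and LYT017, against 3027, 3687, 4280 and 5128 in YAP-deleted LYT006, LYT008, LYT013 and LYT016. The groups overlapped almost fully, and the difference was 0.08 ± 0.17 (limma adjusted p = 0.894), and -0.00 ± 0.20 without LYT013 and LYT014 (adjusted p = 1.00). Cyp2e1, the cytochrome that turns CCl4 into its toxic radical, had 163, 136, 74.6, 280.8 and 175 normalised counts in the control libraries and 186, 190.1, 110.1 and 222 in the YAP-deleted libraries. LYT014 and LYT013 were lowest, and the difference was 0.12 ± 0.25 (limma adjusted p = 0.886), and 0.09 ± 0.19 without these 2 (adjusted p = 0.957). Cyp3a11, a cytochrome that oxidises many drugs, had 5.33, 13.5, 12.8, 65.0 and 40.3 normalised counts in the control libraries and 13.8, 6.38, 37.1 and 21.7 in the YAP-deleted libraries, and both ends of its range were control libraries. Cyp1a2 had 2, 1, 4, 2 and 4 counts in the control libraries and 3, 4, 7 and 5 in the YAP-deleted libraries. Its spread over the libraries, a chi-square of 0.538 per degree of freedom, was no larger than counting error gives. In 34 of the 38 members that ratio was 2 or more. The ratio grows with the count at equal relative spread. Its share over all genes is not given here, so the count of 34 only describes the members.

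**Figure D4:**
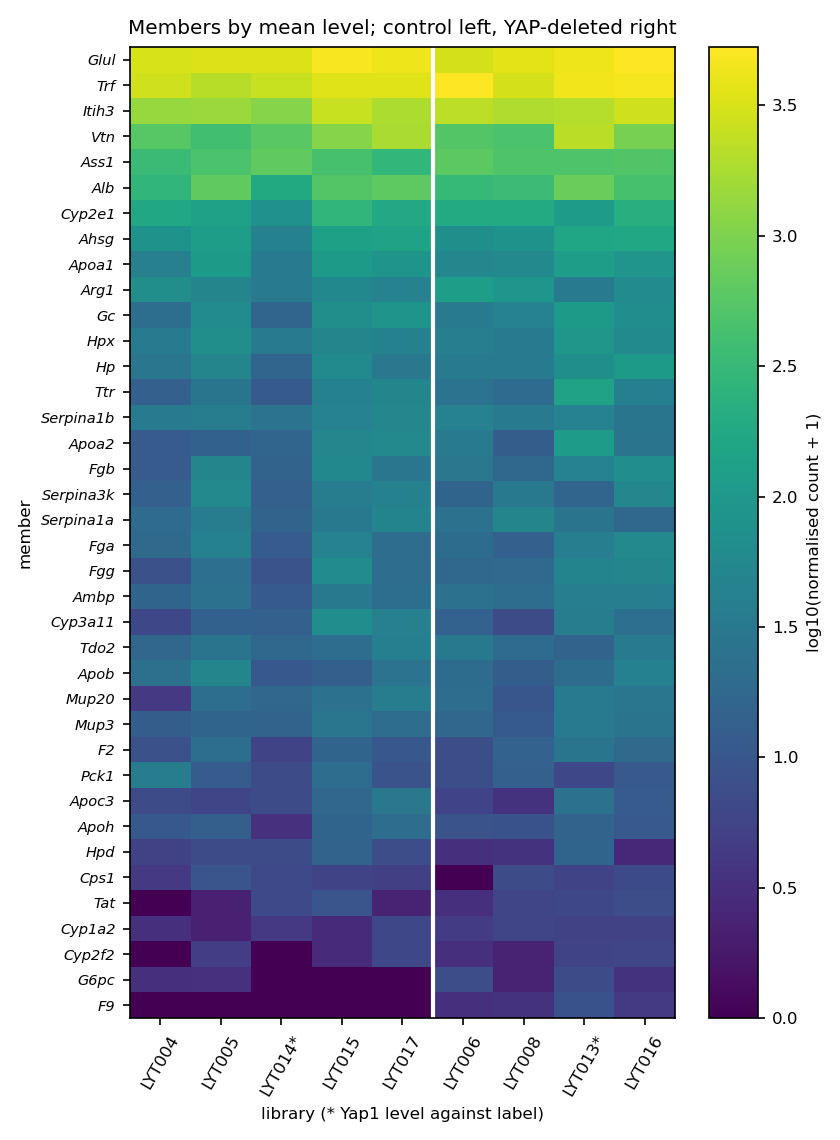
Log10 of the normalised count plus 1 of the 38 members (rows, by mean level) in the 9 libraries (columns, control left and YAP-deleted right of the white line, asterisks mark LYT013 and LYT014). The top 5 rows, from Glul to Ass1, are high in every library, 23 of the 33 rows from Alb down have their single lowest value in LYT004 or LYT014, and the bottom rows reach 0 counts, F9 in all 5 control libraries.

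Alb and the members below it mostly had their lowest values in LYT004 or LYT014. Both are labelled control, and the Yap1 level of LYT014 went against that label. Of these 33 members, 30 had a single lowest library, which was LYT004 or LYT014 for 23, and F9, G6pc and Cyp2f2 were at 0 in several libraries. The share of all genes with their lowest value in LYT004 or LYT014 is not given here, so the count of 23 only describes the members. LYT013 was highest for 10. Across the 9 libraries the deposited value of Alb went with that of Gc (Pearson r = 0.96, Spearman rho = 0.90), Apoa1 (0.95 and 0.95), Apoh (0.88 and 0.80), Ahsg (0.88 and 0.73), Cyp2f2 (0.84 and 0.74), F2 (0.82 and 0.87) and Ttr (0.81 and 0.88). Without LYT013 and LYT014, the libraries farthest from the median of Alb, r over 7 libraries was 0.90 for Gc, 0.91 for Apoa1, 0.79 for Apoh, 0.74 for Ahsg, 0.72 for Cyp2f2, 0.60 for F2 and 0.74 for Ttr. Over the 32 members below Alb the median r was 0.62 with 9 libraries and 0.51 with 7. Points of 1 library share its depth and preparation, so these r are descriptions. Gc lies 1003 kb from Alb on chromosome 5, and Apoa1 on chromosome 9.

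The ratios to Alb carry the same pattern. The count of Apoa1 was 0.134 (LYT017) to 0.201 (LYT016) of that of Alb in every library, although Alb itself ranged 4.25-fold, and that of Gc was 0.0752 (LYT004) to 0.149 (LYT016). Ass1 ran from 0.465 of Alb in LYT017 to 3.65 in LYT014. Cyp2e1 ran from 0.144 in LYT013 to 0.592 in LYT006, and Ttr from 0.0415 in LYT005 to 0.184 in LYT013. Among the abundant members, r with Alb over 9 libraries was 0.58 for Vtn, 0.53 for Glul, 0.45 for Itih3, 0.12 for Trf and -0.44 for Ass1, and over 7 libraries 0.42, 0.48, 0.02, -0.38 and -0.33. Vtn and Glul thus lay near the median of the members below Alb, and Trf and Ass1 lower. With the mean of the other members at or above 20 normalised counts, r over 9 libraries was 0.77 for Glul and Itih3, 0.62 for Vtn, 0.48 for Trf and -0.27 for Ass1. Below Alb, Arg1 (r = -0.29, and -0.81 without LYT013 and LYT014), Pck1 (-0.18 and -0.37) and Cyp2e1 (0.26 and -0.02) also had low or negative values.

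**Figure D5:**
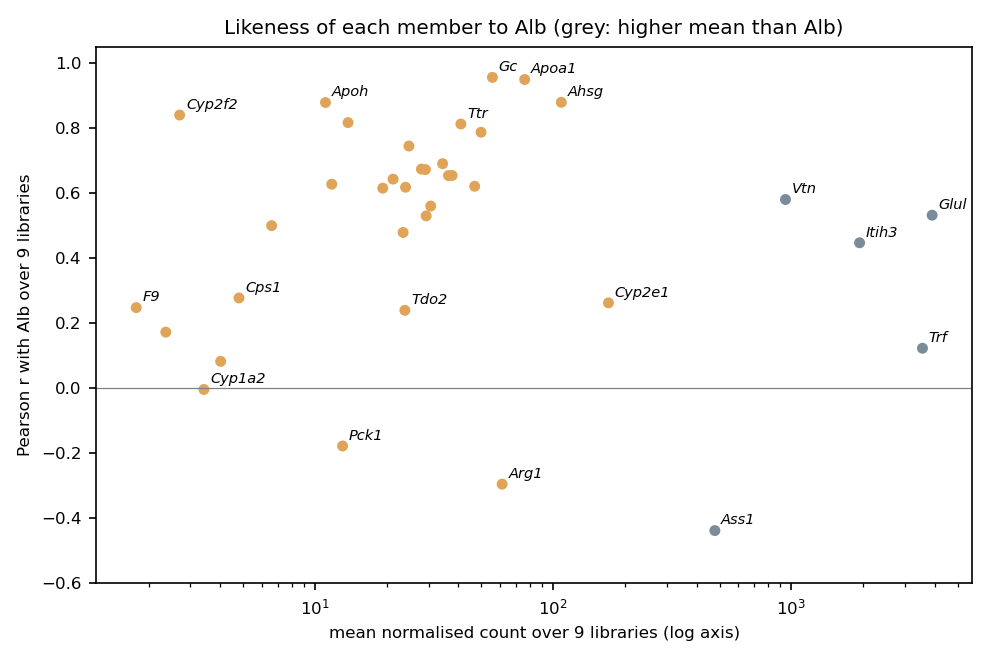
Pearson r of each member with Alb over 9 libraries (vertical axis) against its mean normalised count (log axis), with the 5 members above Alb in grey. Gc, Apoa1, Ahsg and Apoh lie near the top at r of 0.88 to 0.96, and Ass1, Arg1 and Pck1 lie below 0.

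Likeness to the members was not confined to hepatocyte genes. Of the 26 members at or above 20 normalised counts on average, 17 (65.4%) had r of 0.6 or more with the mean deposited value of the others, against 11.2% of the 12038 genes at that level. Without LYT013 and LYT014 these were 18 (69.2%) and 20.2%. The 10 other genes closest to the mean of these members over all 9 libraries were Ces1c (r = 0.96), a liver carboxylesterase, then Gle1, Prmt3, Gatc, Derl2, Hnrnpf, Il34, Sult1a1, Bnip2 and Ufm1 (0.93 for the last). Ces1c had 4.01 to 38.9 normalised counts, whereas Gle1 had 616 to 874 and Hnrnpf 3794 to 4522, so the latter changed far less in fold than Ces1c. Il34, at 1857 to 4384, and Sult1a1, at 781 to 1815, had wider ranges in fold than Gle1 and Hnrnpf.

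A second list held 50 hepatocyte genes, together 509 (LYT004) to 1163 (LYT016) CPM. In it 32 genes had means under 10 normalised counts, 13 had 10 to under 100, and 5 had 100 or more, against 7, 23 and 8 of the 38 members. The hepatocyte transcription factor Hnf4a had 0 to 5.33 normalised counts, and Fabp1, the fatty acid binding protein of hepatocytes, 1.15 (LYT006) to 43.1 (LYT013). The 5 abundant genes were Hsd11b1, which activates glucocorticoids, at 7199 to 17998, Itih4 at 1072 to 2222, the bile salt export pump Abcb11 at 155 to 1175, Apoc1 at 291 to 799 and Fah, an enzyme of tyrosine breakdown, at 76.1 to 244. Their r with Alb over 9 libraries was 0.09, -0.16, -0.43, -0.30 and 0.53, in the same order. Whether this RNA came from hepatocytes or from the sorted cells was not tested. Of the 48 tested with 9 libraries 33 were positive and 15 negative (median 0.06), and of the 43 tested without LYT013 and LYT014 17 were positive and 26 negative (median -0.04). None passed the adjusted threshold.

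Markers of other liver cells were also present at low level. The 13 macrophage and Kupffer cell genes summed to 39.1 to 103 CPM in the control libraries and 57.3 to 138 in the YAP-deleted libraries, lowest in LYT005 and highest in LYT016. The 10 endothelial genes found summed to 88.1 to 257 and 135 to 264, highest in LYT013 and LYT014. Different genes led in these libraries. Clec4g and Egfl7 were highest in LYT013, at 3086 and 878 normalised counts. Stab1, Stab2, Cdh5, Kdr, Lyve1 and Oit3 were highest in LYT014, where Kdr had 482 against 90.4 in LYT013. Pecam1 and Tie1 were highest in LYT006 and LYT008. The 7 cholangiocyte genes summed to 2.67 to 8.73 and 2.58 to 11.3, and Krt19 had at most 4.17 normalised counts. The 8 erythroid and platelet genes summed to 9.50 to 29.5 and 18.7 to 36.7, led by Pf4 except in LYT017, where Hbb-bs had 316 normalised counts, and Hbb-bt was at 0 everywhere. Neutrophil and lymphocyte genes stayed at or below 0.849 and 0.723 CPM. On the log2 scale over 9 libraries the macrophage and endothelial sums had r of 0.09 and -0.04 with Alb. Single endothelial genes had r with Alb from -0.47 (Stab1) to 0.56 (Egfl7). The part of macrophages and endothelium in the levels of Arg1, Ass1, Vtn, Trf, Apob, Hp and Glul was not tested.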

How the data were processed

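RNA of sorted stellate cells was sequenced in 9 libraries, and the labels give the groups. Poly-A and ribosomal depletion preparations are described, per the labels' protocols, without saying which library had which. The tools named are sleuth, kallisto 0.44.0 and bcl2fastq 2.20 and the builds mm10, GRCm38 and GRCh38, per the submitters' processing notes. The table the authors deposited holds 1 variance-stabilised value, close to a log2 scale, for each gene name and library, and which step made it is not stated in the sources used here. The column headed LYT013.1 was taken for LYT013.

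Inverting the inverse hyperbolic sine form of the values gave whole counts to within 0.1 for 100.0% of values, with the size factors. A gene was tested where 4 or more libraries exceeded the floor of the table (4.96), on the deposited scale with limma 3.58.1 in R 4.3.3 (group as the only term, empirical Bayes with trend, two-sided, Benjamini-Hochberg over all genes tested). CPM are counts scaled to 1000000 per library by the recovered totals, and binomial intervals are exact (95%). The procedure was tested on simulated data in which only genes at or above the median level were changed. That test does not show how well a change is found in genes of few counts. Gene positions and median transcript lengths came from GENCODE M21 (GRCm38) and upstream windows from RefSeq, which held 30 of the 38 members. Of 9 motifs searched there 2, and of the second hepatocyte list 1 gene, are not reported here.

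The members, gene lists, tests and alternatives were chosen with earlier results of these data known. The rule for values in every library took Alb, the 6 other members with the highest means, the zonation members, the 4 members with the smallest p in either set of libraries and members at 0 in a whole group; Ttr, Fgb, the ratios to Alb, the likeness to Alb, the other likenesses without LYT013 and LYT014 and the short-transcript share were added after their values were seen. Alternatives covered filters, transformation, scaling, moderation, weights, a term for the range of library codes and the omission of libraries.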

Additional observations from a re-analysis of the deposited data

Results flagged for a closer look

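In 4 of 76 groups of libraries checked (each member in each labelled group), 1 library lay far from the others by Dixon's ratio of the gap to the range, which chance gives in about 1 in 20 groups. Fgg had 62.2 normalised counts in control LYT015, and the next control library had 22.1. Hpd had 14.1 in the same library, next to 6.72. Hpd had 14.96 in YAP-deleted LYT013, whose Yap1 level went against its label, and the next YAP-deleted library had 2.55. Ass1 had 601 in YAP-deleted LYT006, next to 508.9.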

How the results depend on the processing

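No member passed the adjusted threshold under any alternative run, with 9 libraries or 7. No paired analysis was possible because the labelled groups share no replicate numbers. With 9 libraries every alternative left 0 genes called (744 to 1969 at an unadjusted p under 0.05), except the omission of LYT013 and LYT014, which gave 3 higher and 8 lower. With 7 libraries, a term for the range of library codes gave 7 higher and 18 lower, and leaving out each library gave 1 to 3 higher and 1 to 7 lower, with 1 and 1 without LYT006; the other settings gave 2 to 3 higher and 6 to 10 lower. Of 23 differences of single members followed under 440 alternatives, 15 kept their sign throughout, 25 alternatives turned a sign, and adjusted p ran from 0.219 to 1. With 9 libraries, library weights turned Alb (-0.14), Vtn (-0.40) and Glul (-0.070), and the omission of LYT013 and LYT014 turned Alb (-0.40), Vtn (-0.41), Glul (-0.00032) and Ttr (-0.079). Leaving out 1 library moved Alb between -0.16 and 0.23 (-0.028 without LYT004, -0.15 without LYT013, -0.16 without LYT014), Vtn between -0.31 and 0.41 (-0.11 without LYT005, -0.31 without LYT013), Glul between -0.047 and 0.20 (-0.047 without LYT016) and Cyp2e1 between -0.064 and 0.29 (-0.064 without LYT014). With 7 libraries, Glul turned to 0.0066 with median-centred libraries, to 0.088 with the code range as a term, and to 0.17, 0.031, 0.11 and 0.050 without LYT006, LYT008, LYT015 and LYT017 (-0.20 to 0.17 over all omissions of 1 library). Ttr turned to 0.0029 with the code range as a term, and to 0.023 and 0.039 without LYT008 and LYT017 (-0.24 to 0.039). Cyp2e1 turned to -0.031 with library weights and to -0.013 without LYT005 (-0.013 to 0.26). The cause of these changes was not tested. Leaving out 1 library moved the log2 ratio of the summed members between 0.21 and 0.38, and that of the 33 members not above Alb between -0.04 and 0.27. Members under 10 normalised counts are limited by depth, since 3 counts correspond to 2.41 (LYT014) to 4.03 (LYT017) normalised counts in the control libraries. In LYT013, the deepest library, they correspond to fewer.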
